A study of Mus musculus with 8 samples.

Results

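The response of RAW264.7 cells (a macrophage-like line of the mouse) after 6 h with bacteria is described from 2 of the 8 arrays of the series, those that the labels give as 6 h. The first array set RNA of cells kept with Lactobacillus acidophilus MTCC-10307 for 6 h against RNA of untreated cells of the same time. The second did the same with Bacillus clausii MTCC-8326, a spore-forming species sold as a probiotic. They are called L. acidophilus and B. clausii below. Both bacteria were given at a multiplicity of infection of 100, and treated RNA carried Cy5 while untreated RNA carried Cy3. The other 6 arrays, taken after 1, 2 and 4 h with the same design, served for comparison with the earlier hours. All groups are the same cell line, and the labels name no genetic change. Equal amounts of RNA from 3 cultures went into each pool, so each bacterium has 1 array at 6 h and the 2 bacteria serve as 2 readings of the 6 h response. By its title, the series follows expression kinetics after candidate probiotic strains.

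Macrophages meet bacteria through Toll-like receptors, which sense lipoproteins and cell wall parts of Gram-positive bacteria and start NF-kB and MAP kinase signalling. The first genes to respond encode chemokines, cytokines and feedback inhibitors, and many of their transcripts are short-lived. Secretion, lipid use and metabolism also shift in stimulated macrophages, through sterol-sensing (SREBP2), the unfolded protein response of the endoplasmic reticulum (ER), ATF4, NRF2 and hypoxia-linked transcription.

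Values are log2 ratios, treated over untreated cells on 1 array, or means or differences of such ratios, unless called a signal (background-corrected, normalized brightness in arbitrary units). A pair of ratios holds the L. acidophilus value and then the B. clausii value. Levels of different genes are not compared, since probes differ in brightness. Of the 41174 probes, 44.6% in the treated and 42.7% in the untreated channel were well above background on the L. acidophilus array of 6 h. On the B. clausii array these shares were 40.8% and 42.1%. No spot was saturated, and the SD of replicate spots of a probe was 0.130 on both. The filter left 14807 genes, each read from its brightest probe, of which 10780 had signal in both channels of both arrays. All 12 macrophage markers with a probe were detected. Of markers of other cells, Lck (1 of 6 T-cell genes) and Vwf (1 of 5 endothelial genes) were detected, neither of them called changed, and 0 of 5 neutrophil, 0 of 5 fibroblast, 0 of 5 epithelial and 0 of 3 erythroid genes were.

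After 6 h with either bacterium, treated cells held more of the amino-acid transporter transcript Slc43a2, the nuclear RNA Neat1 and the membrane tether Esyt3, each at 2.78 to 2.85 times the untreated level. They held less of Selenbp1, Crtam, Herpud1 and the sterol synthesis gene Msmo1, at 0.416 to 0.469 times the untreated level. Sterol synthesis genes as a list lay lower and cytosolic ribosomal protein genes higher than the median gene. Of the 14807 genes, 4187 (28.3%) passed the test of the mean of both arrays against 0 (limma, Benjamini-Hochberg adjusted p under 0.05), 2151 of them higher (14.5%) and 2036 lower (13.8%) in treated cells. All 4187 had the same sign on both arrays, which largely follows from calling genes on the mean of these 2 arrays. Among all genes, 28.4% had opposite signs. Most of the changes were small, and 16 called genes were at least 2-fold higher and 12 at least 2-fold lower on average. The call compares how well the 2 bacteria agree within times, not cultures, and without a dye exchange a gene's constant dye bias and its response cannot be told apart. Without the B. clausii array 1834 genes passed, and with arrays centred on their medians in place of loess 1099 did, 14.4% of them higher against 51.4% of the calls reported here, with the median of all genes at -0.10 in place of 0.02.

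**Figure D1:**
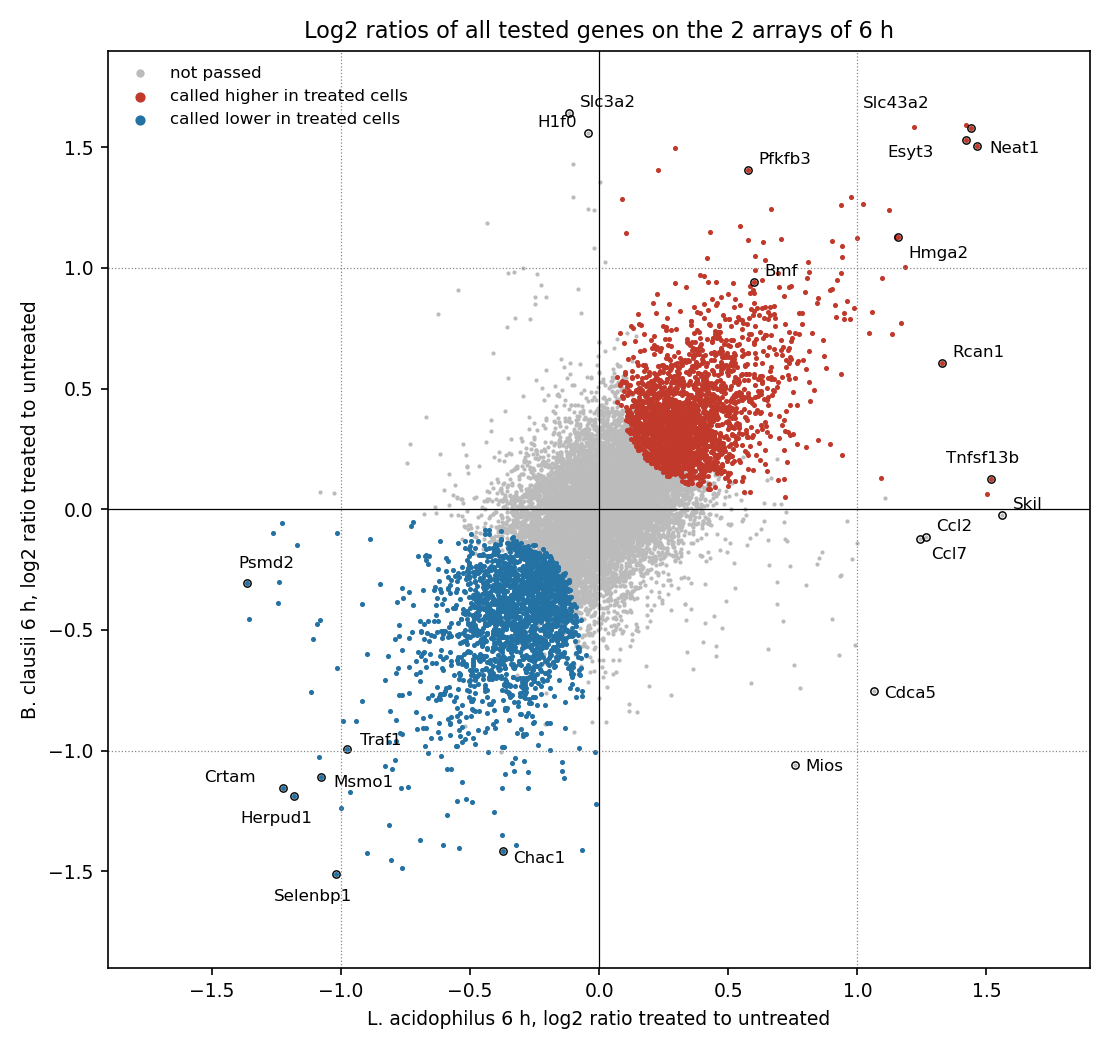
Log2 ratio (treated over untreated cells) at 6 h for 14807 genes, L. acidophilus on the x axis and B. clausii on the y axis. Red points were called higher, blue points lower, and grey points did not pass. Dotted lines mark 2-fold, and Slc43a2, Neat1 and Esyt3 lie together at the upper right, against Crtam, Herpud1 and Msmo1 at the lower left.

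The plot of all genes on both arrays shows the shared direction. Over the 14807 genes the 2 arrays correlated with r = 0.64, a description across genes, which are not independent. At 1, 2 and 4 h the arrays of the 2 bacteria correlated at r = 0.71, 0.78 and 0.71, each above the value of 6 h. The L. acidophilus array of 6 h correlated with that of 4 h at r = 0.61, of 2 h at 0.38 and of 1 h at 0.29. For B. clausii the values were 0.60, 0.44 and 0.14. Both ratios were positive for 5747 genes (38.8%), both negative for 4861 (32.8%) and opposite for 4199 (28.4%).

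Genes past 2-fold on both arrays numbered 15 (0.101%), with 10 higher (0.0675%) and 5 lower (0.0338%). At 1.5-fold the numbers were 118 higher (0.797%) and 85 lower (0.574%). Alone, the L. acidophilus array had 44 genes past 2-fold (0.297%), 24 higher (0.162%) and 20 lower (0.135%), and the B. clausii array 90 (0.608%), 41 higher (0.277%) and 49 lower (0.331%).

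Slc43a2, a transporter of neutral amino acids, gave signals of 427 in treated and 158 in untreated cells on the L. acidophilus array, and of 563 and 188 in treated and untreated cells on the B. clausii array. Treated cells were higher on both arrays, with a mean log2 ratio of 1.51 ± 0.08 (SE, n = 2 arrays; limma adjusted p = 2.26e-05). Its dimmer second probe did not show this, with log2 ratios of -0.35 and -0.06. Neat1, the long noncoding RNA on which nuclear paraspeckles are built, gave signals of 5067 in treated and 1836 in untreated cells with L. acidophilus, and of 6035 and 2128 in treated and untreated cells with B. clausii. Its mean was 1.48 ± 0.11 (adjusted p = 8.74e-05), and its ratios lay between 0.86 and 1.43 on all 6 earlier arrays, so that its difference between 6 h and the earlier hours, 0.32, did not pass (adjusted p = 0.118). Esyt3, an extended synaptotagmin that tethers ER to plasma membrane, gave signals of 1417 in treated and 529 in untreated cells with L. acidophilus and of 1652 and 572 in treated and untreated cells with B. clausii. It was near 0 at 1 h (-0.05 and 0.05) and at 2 h (0.02 and 0.30), reached 1.09 and 1.01 at 4 h and 1.42 and 1.53 at 6 h, and passed both tests.

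Snhg20 (1.12 and 1.24) and Snhg7 (0.94 and 1.26), both noncoding host genes of small nucleolar RNAs, were also among the 14 called genes with the largest rise. The values of these RNAs and of Neat1 rest on one probe each, printed here because a noncoding RNA is identified on the array by that stretch alone. Coordinates are those of mm9 in the file headers, and sequences run 5′ to 3′ as deposited.
Neat1, chr19:5842564-5842623, minus strand: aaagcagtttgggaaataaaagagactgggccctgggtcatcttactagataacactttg
Snhg20, chr11:116938514-116940146, plus strand: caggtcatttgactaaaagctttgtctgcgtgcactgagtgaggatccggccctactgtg
Snhg7, chr2:26492862-26492921, minus strand: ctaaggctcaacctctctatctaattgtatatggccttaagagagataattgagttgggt
The Snhg20 stretch is longer in the genome than the probe of 60 bases.

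Other large rises were those of Hmga2, a chromatin-bending protein (1.16 and 1.13 with L. acidophilus and B. clausii), B4galt1, a galactosyltransferase of the Golgi (1.02 and 1.27), and Lrrk1, a kinase (1.15 and 1.13). The other probes of Hmga2 also lay above 0 on both arrays, while both other probes of Lrrk1 lay between -0.29 and 0.14. Tmem268 (1.18 and 1.01), mitochondrially encoded CYTB (0.90 and 1.11) and Zfp329 (0.94 and 0.98) agreed closely between bacteria, though both dimmer probes of Zfp329 lay between -0.26 and 0.18. Less even were Pfkfb3, whose product drives glycolysis (0.58 and 1.40, adjusted p = 0.00278), Rcan1, an inhibitor of calcineurin (1.33 and 0.61, adjusted p = 0.00162), and Epm2aip1 (0.66 and 1.24), whose second probe was at -0.19 and -0.52.

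At the other end, Crtam, an adhesion molecule of the immunoglobulin family, gave signals of 136 in treated and 317 in untreated cells with L. acidophilus, and of 142 and 316 in treated and untreated cells with B. clausii. Its mean log2 ratio was -1.19 ± 0.07 (adjusted p = 2.26e-05). Selenbp1, a selenium-binding protein, averaged -1.26 ± 0.12 (-1.02 and -1.51, adjusted p = 0.000268). Traf1, an adaptor of TNF receptors that NF-kB induces, gave signals of 1296 in treated and 2548 in untreated cells with L. acidophilus and of 1400 and 2785 in treated and untreated cells with B. clausii. It was already lower at 1 h (-0.40 and -0.42) and at 4 h (-1.08 and -1.11), and stood at -0.98 and -0.99 at 6 h. Among the other 14 largest falls were Eif5, the GTPase activator of the start-codon scan (-0.81 and -1.45, with 2 further probes also below 0), Lmnb1, the lamin B1 of the nuclear envelope (-1.0 and -1.24), Itpr1, an ER calcium channel (-0.69 and -1.37), Prmt2, an arginine methyltransferase (-0.97 and -1.17), Rrp1, of ribosomal RNA processing (-0.82 and -1.31), and Rab15, a small GTPase (-1.08 and -1.03). Glg1 (-0.76 and -1.49), Ccar1 (-0.90 and -1.42, second probe -0.51 and -1.02, dimmest probe 0.13 and -0.07) and Sltm (-0.60 and -1.39, adjusted p = 0.0196) fell further with B. clausii, a difference not tested.

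**Figure D2:**
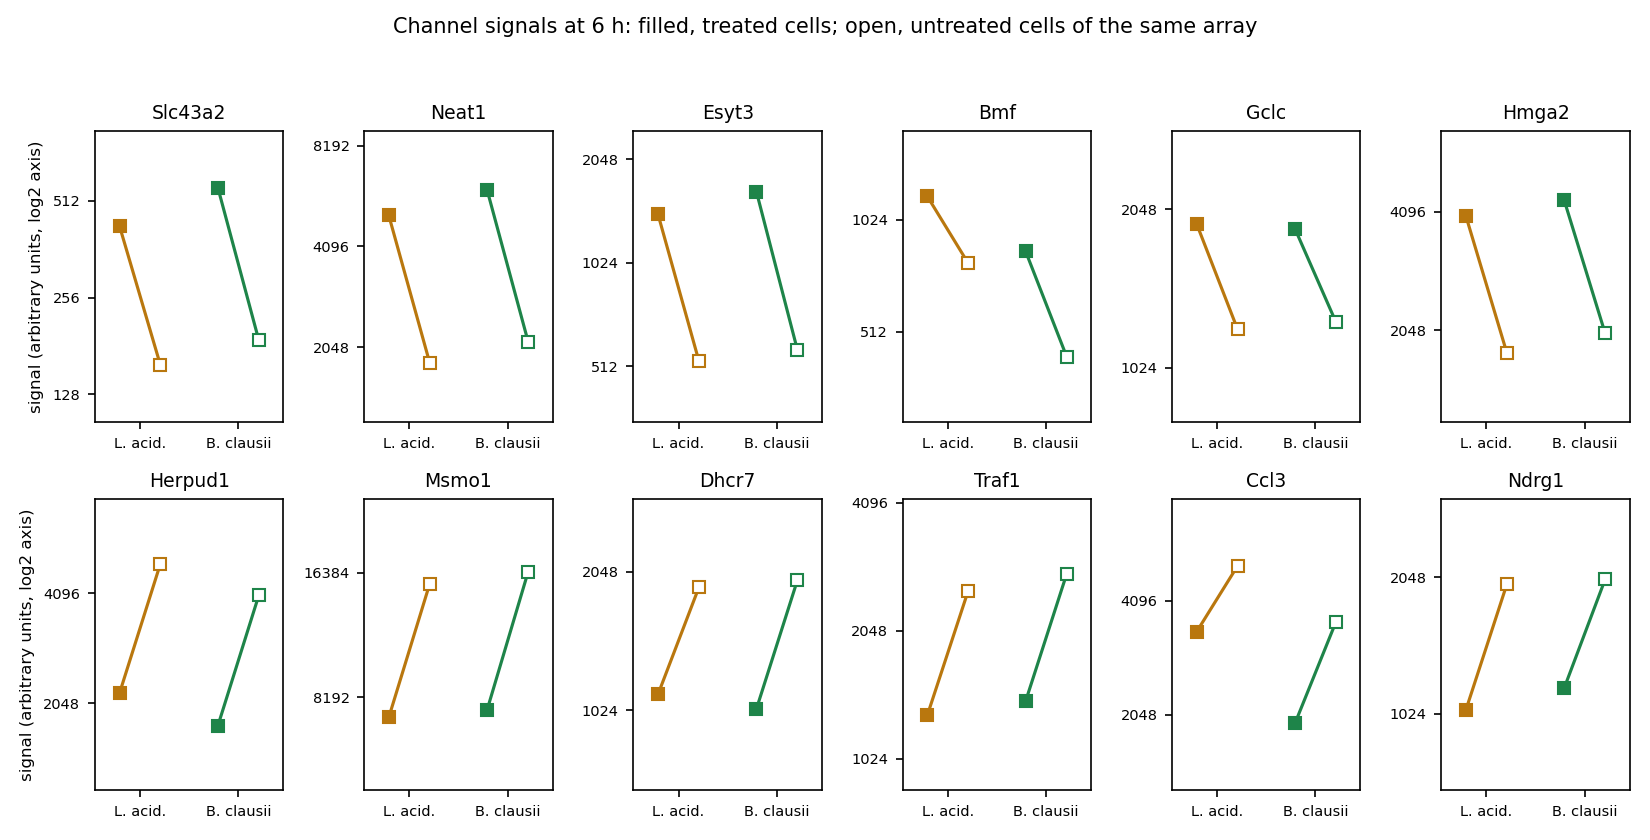
Signals in treated (filled) and untreated cells (open) on the L. acidophilus and B. clausii arrays of 6 h for 12 genes, log2 axis in arbitrary units, 1 array per bacterium. In the upper 6 genes treated cells are the brighter on both arrays (Neat1, 5067 against 1836 with L. acidophilus), and in the lower 6 the dimmer (Msmo1, 7318 against 15423).

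The plot of channel signals shows 12 genes chosen among called genes, so their shared direction on both arrays follows from the choice. Signals of a gene can differ in brightness between the arrays, as for Ccl3 and Bmf.

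Setting 6 h against the mean of 1, 2 and 4 h asks how the last hour sampled differed from the average of those before, and a constant dye bias cancels in it. A gene can pass although 4 h was already close to 6 h. Compared with the earlier hours, the 6 h ratios were lower for 21 of 30 ER, 13 of 25 sterol and 11 of 31 hypoxia-linked genes and for the chemokines Ccl3 and Ccl4, and higher for 6 of 27 oxidative stress genes. Of the genes named by the rule for this comparison, Herpud1 had the largest fall and Mllt11 the largest rise. In all, 2296 genes (15.5%) passed, 1070 higher (7.23%) and 1226 lower (8.28%) at 6 h than before. Of these, 1482 were also called in the 6 h response, 1466 with the same sign. Time coincides with the position on the slide, so a position effect and an effect of time cannot be told apart. The count is less stable than that of the 6 h response: 863 passed without the B. clausii array of 6 h, 1328 and 1356 without the 2 h array of L. acidophilus or B. clausii, 367 with the scanner software's processed signals, and 1 (Herpud1) with median centring.

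Part of the genes called at 6 h had the same sign on all earlier arrays. Of the 2151 genes called higher at 6 h, 1026 (47.7%) were above 0 on all 6 earlier arrays, and of the 2036 called lower 793 (38.9%) were below 0 on all 6. Among all genes the shares were 19.9% and 16.4%. Without a dye exchange, a constant dye bias and a lasting response cannot be told apart in these shares.

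Among genes higher than before, Mllt11 rose most, with ratios of 0.92 and 0.95 at 6 h against -0.66 to 0.59 on the earlier arrays, a difference of 1.15 ± 0.08 (SE; limma adjusted p = 0.000121). Bmf, a BH3-only protein that promotes cell death, had ratios of -0.58, -0.42, 0.34 and 0.60 at 1, 2, 4 and 6 h on the L. acidophilus arrays and of -1.07, -0.45, 0.51 and 0.94 on the B. clausii arrays. It thus lay below untreated cells early and above them at 6 h, a difference of 1.05 (adjusted p = 0.00185), though its dimmer second probe was at 0.06 and 0.17 at 6 h. Sucnr1, the receptor for succinate, differed by a similar amount, 1.05 (adjusted p = 0.000818), in another way. It lay between -1.02 and -0.64 on every earlier array and at 0.30 and 0.18 at 6 h, where it did not pass (adjusted p = 0.0789). Syt16 (0.60 and 0.89 at 6 h, difference 1.02), Armc7 (0.55 and 0.63, difference 0.87) and Tmem268 (difference 0.98) moved alike with both bacteria, while Mcat (0.29 and 1.5) and Tomm6 (0.09 and 1.29) rested mainly on B. clausii.

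Sterol genes were lower as a list. Of 25 measured genes of cholesterol synthesis and other targets of SREBP2, 15 were called lower and 0 higher at 6 h, where 13.8% of all genes were lower. Their median was -0.33, against 0.02 for all genes, and 18 had negative ratios on both arrays. Msmo1, which removes the methyl groups of lanosterol derivatives, gave signals of 7318 in treated and 15423 in untreated cells with L. acidophilus and of 7633 and 16467 in treated and untreated cells with B. clausii, a mean of -1.09 ± 0.06 (adjusted p = 3.37e-05). Its ratios ran 0.54, 0.30, -0.36 and -1.08 over 1, 2, 4 and 6 h on the L. acidophilus arrays and 0.61, 0.25, -0.32 and -1.11 on the B. clausii arrays, so that the sign turned between 2 and 4 h with both.

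Enzymes along the pathway shared the direction. Dhcr7, of the last step, was at -0.77 and -0.93, Ebp, a sterol isomerase, at -0.41 and -1.25, and Idi1, the isopentenyl diphosphate isomerase, at -0.57 and -1.08. Dimmer second probes of Dhcr7 (-0.16 and -0.16) and Idi1 (-0.002 and -0.23) fell less. Also lower were Cyp51, the lanosterol demethylase (-0.82 and -0.61), Lss, lanosterol synthase (-0.53 and -0.55), Hmgcs1 (-0.66 and -0.23) and Fdft1, squalene synthase (-0.33 and -0.31), chosen for mention after their values were seen. Genes that did not pass included Sqle, squalene epoxidase (-0.34 and 0.11), the sterol sensor partner Insig1 (-0.20 and 0.07), Fdps (-0.11 and 0.13) and Srebf2 itself (-0.25 and 0.29). Against the earlier hours 13 of the 25 were lower and 0 higher, with a median difference of -0.35 (0.01 for all genes), and the same list had an earlier median of 0.06. Leaving out the L. acidophilus array of 6 h left 10 called lower at 6 h, and with median centring 11 were, but 0 against the earlier hours.

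**Figure D3:**
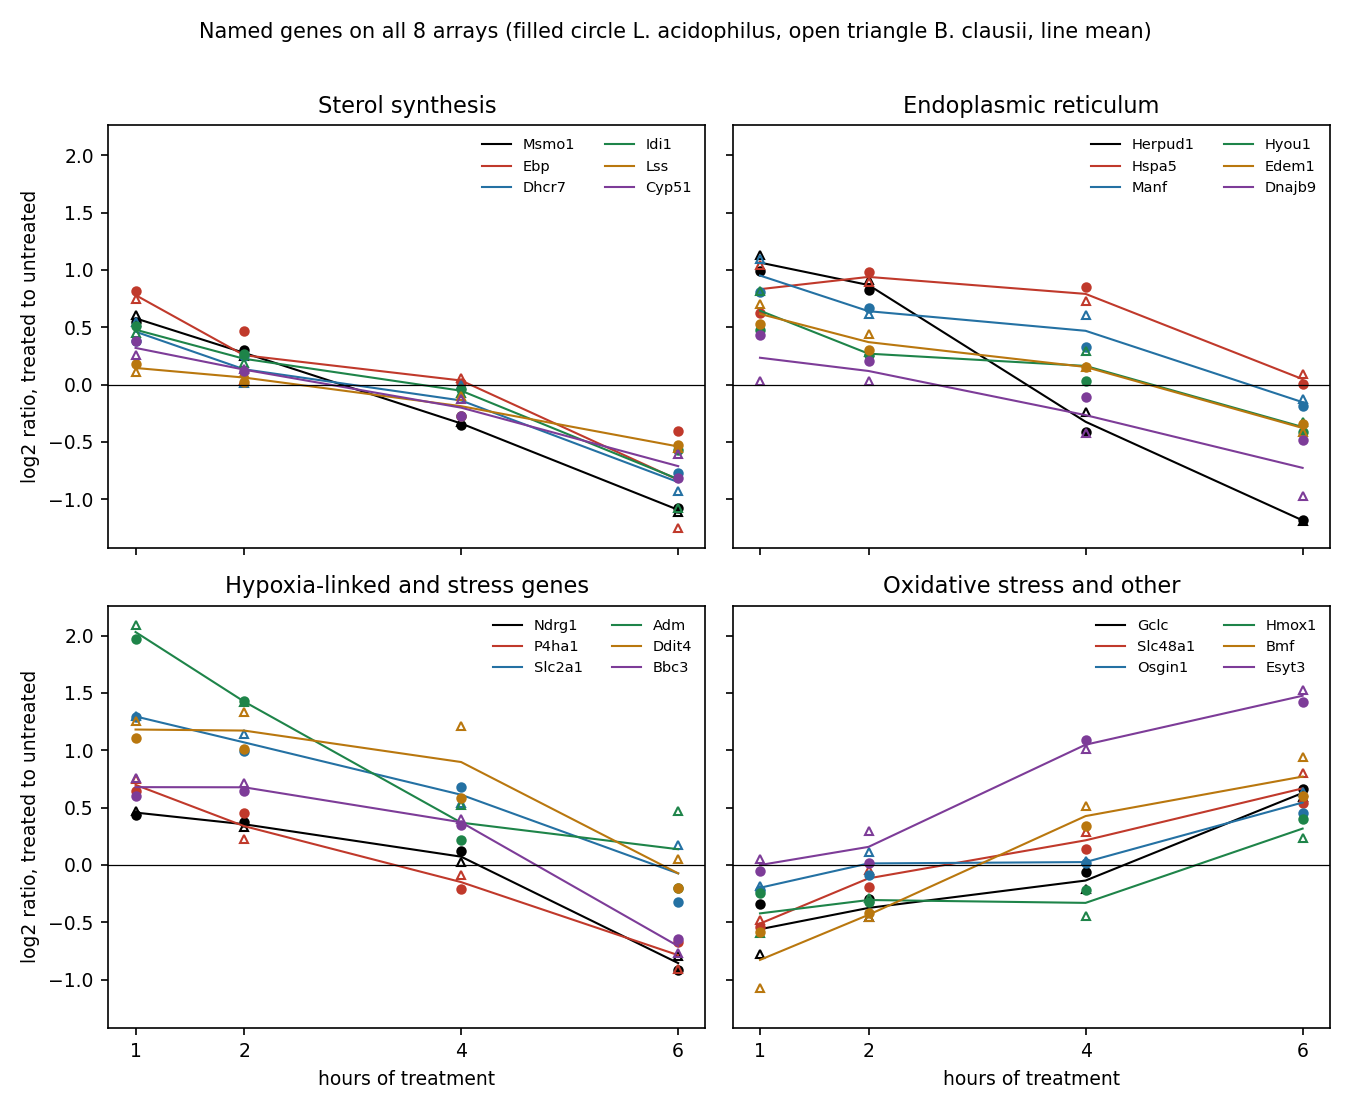
Log2 ratio (treated over untreated cells) against hours of treatment for 24 genes in 4 panels, circles for L. acidophilus, triangles for B. clausii (1 array each), lines for their mean. Msmo1, Herpud1 and Bbc3 start above 0 at 1 h and end below it at 6 h (Herpud1 at -1.18 and -1.19), while Gclc and Bmf run the other way. Adm falls from 1.97 and 2.09 at 1 h to -0.20 and 0.47 at 6 h.

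ER genes were lower at 6 h than at the earlier hours, as the plot over the hours shows. Of 30 measured ER chaperones and unfolded protein response genes, 8 were called lower and 0 higher at 6 h (median -0.19), but 21 were lower and 0 higher than at the earlier hours, where 8.28% of all genes were lower. The median of the list was 0.26 over the earlier hours and its median difference -0.45. Herpud1, a part of the machinery that disposes of misfolded ER proteins, gave signals of 2180 in treated and 4940 in untreated cells with L. acidophilus and of 1774 and 4043 in treated and untreated cells with B. clausii. Over 1, 2, 4 and 6 h its ratios were 0.99, 0.83, -0.41 and -1.18 on the L. acidophilus arrays and 1.13, 0.91, -0.24 and -1.19 on the B. clausii arrays. It passed both tests, at -1.18 ± 0.07 at 6 h (adjusted p = 4.13e-05) and -1.72 ± 0.08 against the earlier hours (adjusted p = 2.16e-05). The ER chaperone Hspa5 (BiP) behaved differently at 6 h, with ratios of 0.00 and 0.09 (adjusted p = 0.737) after 0.63 to 1.04 on the earlier arrays (difference -0.81, adjusted p = 0.00239). Manf, a secreted ER stress protein, had a like pattern (-0.18 and -0.12 at 6 h, 0.33 to 1.1 before, difference -0.84, adjusted p = 0.00169). Both were chosen for mention after their values were seen.

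Lower at 6 h as well were Dnajb9, a cochaperone of BiP (-0.48 and -0.97), Ero1b, an oxidase of disulfide formation (-0.49 and -0.40), Sdf2l1 (-0.48 and -0.35), Edem1, which marks glycoproteins for disposal (-0.34 and -0.42), and Hyou1 (-0.41 and -0.33), each also lower than before. Xbp1, a transcription factor of the response, did not pass at 6 h (-0.15 and 0.15). With processed signals 3 of the 30 were lower at 6 h and 5 lower than before, and with median centring 9 and 1. Leaving out the L. acidophilus array of 6 h gave 2 higher and 5 lower at 6 h and 13 lower than before, and without the B. clausii array 15 were lower than before.

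The promoters of this list were read because its members moved together. In the 250 bases before the RefSeq start (GRCm38.p6), the ER stress response element, spelled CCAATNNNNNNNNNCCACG on either strand, was present in 9 of 26 list genes with a promoter entry (34.6%) and in 16 of the 10370 tested genes with one (0.154%). The carriers were Hsp90b1, Pdia6, Hspa5, Dnajc3, Canx, Creld2, Syvn1, Calr and Ero1b. All 9 were called lower than at the earlier hours, but 1 of them, Ero1b, lower at 6 h itself. The element was not found in the window of Herpud1, which holds instead the C/EBP-ATF element described next. Its end can overlap the hypoxia motif ACGTG. The windows below show 5 carriers with 20 bases on either side, 5′ to 3′ on the gene's strand, all on the plus strand, with the element in capitals.
Hspa5, chr2:34772005-34772063: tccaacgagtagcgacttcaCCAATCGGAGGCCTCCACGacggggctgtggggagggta
Creld2, chr15:88819500-88819558: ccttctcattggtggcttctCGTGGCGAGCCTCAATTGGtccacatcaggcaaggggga
Dnajc3, chr14:118937807-118937865: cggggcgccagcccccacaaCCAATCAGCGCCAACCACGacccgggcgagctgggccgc
Syvn1, chr19:6046512-6046570: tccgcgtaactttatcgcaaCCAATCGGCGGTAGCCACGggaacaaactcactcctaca
Ero1b, chr13:12565662-12565720: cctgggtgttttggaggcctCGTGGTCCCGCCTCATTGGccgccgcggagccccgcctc
Hspa5, Dnajc3 and Syvn1 carry the element in the direction of transcription and Creld2 and Ero1b carry it reversed. Syvn1, an ER ubiquitin ligase, stood at -0.41 and -0.02 at 6 h and Creld2 at -0.40 and -0.01, and neither passed there.

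Genes of the integrated stress response, driven by ATF4 when amino acids or ER function run short, were lower in part. Of 28 measured, 8 were lower and 0 higher at 6 h (median -0.12), and 9 were lower and 0 higher than before, where 13.8% and 8.28% of all genes were lower. The factor Atf4 was at -0.55 and -0.98 (mean -0.77, adjusted p = 0.000733), its partner and target Ddit3 (CHOP) at -0.74 and -0.65, Trib3, a pseudokinase that restrains ATF4, at -0.71 and -0.68, the alanyl-tRNA synthetase Aars at -0.50 and -0.79 and the glutathione-degrading Chac1 at -0.37 and -1.41 (adjusted p = 0.0193). A dimmer second probe of Aars read 0.04 and -0.10. Ddit3 had been above 0 at 1 h (0.51 and 0.63) and 2 h (0.44 and 0.58) and below it at 4 h (-0.63 and -0.46). Asns and Gars, also textbook targets, did not pass at 6 h. Ddit4, an inhibitor of mTORC1, was at -0.20 and 0.05 at 6 h (adjusted p = 0.716) after 0.58 to 1.33 on the earlier arrays, a difference of -1.16.

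The C/EBP-ATF element, spelled TGATGNAA on either strand, was present before the start of 6 of 24 list genes with a promoter entry (25%) and of 2.72% of all tested genes with one. The carriers were Gars, Asns, Atf3, Nupr1, Aars and Chac1, of which Nupr1, Aars and Chac1 were called lower at 6 h. Their windows are printed on the gene's strand with the element in capitals.
Chac1, chr2:119351029-119351076, plus strand: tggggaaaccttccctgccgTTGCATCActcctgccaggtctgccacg
Aars, chr8:111033710-111033757, plus strand: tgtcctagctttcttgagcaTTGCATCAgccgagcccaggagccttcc
Nupr1, chr7:126625553-126625600, minus strand: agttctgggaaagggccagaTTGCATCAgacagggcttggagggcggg
All 3 carry the same letters, TTGCATCA, the element reversed. The sterol element, spelled TCACNCCAC, was found in the windows of 1 of 17 sterol genes with an entry (5.88%), Hmgcs1, and of 1.32% of all tested genes.
Hmgcs1, chr13:119690194-119690242, plus strand: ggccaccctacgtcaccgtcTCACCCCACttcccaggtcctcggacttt

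Hypoxia-linked and glycolytic genes split at 6 h. Of 31 measured, 4 were higher and 8 lower at 6 h (median -0.05), whereas against the earlier hours 0 were higher and 11 lower (median difference -0.28, earlier median 0.18). Of all genes 14.5% were higher and 13.8% lower at 6 h, and 7.23% higher and 8.28% lower than before. Ndrg1, a stress-responsive gene, gave signals of 1044 in treated and 1974 in untreated cells with L. acidophilus and of 1167 and 2025 in treated and untreated cells with B. clausii (mean -0.86, adjusted p = 0.000105). The prolyl hydroxylase P4ha1 (-0.67 and -0.91), the pyruvate dehydrogenase kinase Pdk1 (-0.29 and -0.72, second probe -0.01 and 0.06) and the platelet phosphofructokinase Pfkp (-0.54 and -0.37) were also lower. Pfkfb3, the glycolytic enzymes Aldoa (0.32 and 0.54) and Pgk1 (0.38 and 0.40), and Gpi1 (0.26 and 0.37) were higher. Adm, which encodes the vasodilator adrenomedullin, was far above untreated cells at 1 h and close to them at 6 h. Its ratios were 1.97, 1.43, 0.21 and -0.20 over 1, 2, 4 and 6 h on the L. acidophilus arrays and 2.09, 1.42, 0.52 and 0.47 on the B. clausii arrays (difference -1.14, adjusted p = 0.00239). The glucose transporter Slc2a1, chosen after its values were seen, ran 1.29, 1.00, 0.68 and -0.32 on the 4 L. acidophilus arrays and 1.30, 1.14, 0.54 and 0.17 on the 4 B. clausii arrays (difference -1.07). The letters ACGTG were in the windows of 19 of 28 list genes with an entry (67.9%) and of 24.0% of all tested genes, and 8 of the 19 were lower than before. Leaving out the L. acidophilus array of 6 h gave 10 higher and 6 lower at 6 h, leaving out the B. clausii array 1 higher and 7 lower.

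Oxidative stress genes under NRF2 went up in part. Of 27 measured, 7 were higher and 3 lower at 6 h (median 0.06, where 14.5% of all genes were higher), and 6 were higher and 2 lower than before (median difference 0.12, where 7.23% of all genes were higher). Gclc, the catalytic subunit of the rate-limiting enzyme of glutathione synthesis, gave signals of 1922 in treated and 1211 in untreated cells with L. acidophilus and of 1881 and 1250 in treated and untreated cells with B. clausii. Its ratios were -0.34, -0.29, -0.06 and 0.67 over 1, 2, 4 and 6 h on the L. acidophilus arrays and -0.78, -0.46, -0.21 and 0.59 on the B. clausii arrays, a difference of 0.99 (adjusted p = 0.00135). It was thus below untreated cells on all 6 earlier arrays and above them on both arrays of 6 h. The heme transporter Slc48a1 (0.54 and 0.80), Osgin1 (0.45 and 0.64) and the heme oxygenase Hmox1 (0.40 and 0.23, adjusted p = 0.0311) were higher than before as well, and metallothionein Mt2 (0.44 and 0.45) was higher at 6 h. The factor itself, Nfe2l2 (-0.20 and -0.56), and the autophagy receptor Sqstm1 (-0.49 and -0.51) were lower. With median centring 0 of the 27 passed in either direction at 6 h.

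Among chemokines, Ccl3 and Ccl4 were below untreated cells at 6 h and lower than the mean of the earlier hours. Of 11 measured, 2 were higher and 3 lower at 6 h (median 0.13, earlier median 0.40), where 14.5% of all genes were higher and 13.8% lower. Ccl3, a macrophage inflammatory protein, gave signals of 3390 in treated and 5063 in untreated cells with L. acidophilus and of 1942 and 3599 in treated and untreated cells with B. clausii. Its ratios were 0.96, 0.84, -0.23 and -0.58 over 1, 2, 4 and 6 h on the L. acidophilus arrays and 1.21, 0.44, -0.55 and -0.89 on the B. clausii arrays (mean at 6 h -0.73 ± 0.12, adjusted p = 0.00217). Ccl4, its neighbour in function, was at 1.26, 0.88, -0.84 and -0.64 over the same hours on the L. acidophilus arrays, and at 1.30, 1.03, -0.78 and -0.52 on those of B. clausii. It was lower at 6 h than the mean of the earlier hours (difference -1.06), but its lowest ratios were those of 4 h. Ccl5 was lower (-0.23 and -0.35), and Cxcl10 (0.27 and 0.27) and Cxcl14 (0.37 and 0.47) were higher. The neutrophil and monocyte attractants Cxcl2, Ccl2 and Ccl7 differed between the bacteria. Ccl2 gave signals of 19326 in treated and 8040 in untreated cells with L. acidophilus, against 8450 and 9147 in treated and untreated cells with B. clausii. Its ratios of 1.27 and -0.11 did not pass (adjusted p = 0.121), nor did those of Ccl7 (1.24 and -0.12) and Cxcl2 (0.69 and -0.39), although Ccl2 had been between 0.49 and 1.78 on all 6 earlier arrays.

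Of cytokine genes 3 of 15 passed, of NF-kB genes 7 of 25 and of Toll-like receptor genes 7 of 21, where 28.3% of all genes did. Tnf was higher (0.38 and 0.74, adjusted p = 0.00321), as were Ltb (0.41 and 0.97) and Tnfsf13b, the B-cell factor BAFF (1.52 and 0.12, adjusted p = 0.0251), and no other of 15 measured cytokine genes passed. Tnfsf13b rested on L. acidophilus, and its second probe read 0.20 and 0.14. Of 25 genes of NF-kB and its inhibitors 5 were higher, among them Birc3 (0.31 and 0.36) and the inhibitor Nfkbie (0.48 and 0.18), and 2 lower, Traf1 and Irak3 (-0.34 and -0.32). Of 21 Toll-like receptor genes 3 were higher and 4 lower. Tlr2, the receptor for bacterial lipoproteins, was at 0.35 and 0.35 and Cd180 at 0.69 and 0.98, with a second Cd180 probe at -0.09 and 0.06. Cd14 (-0.67 and -0.19), Ly96 (-0.26 and -0.70), Tlr6 (-0.31 and -0.34) and Tlr7 (-0.53 and -0.41) were lower. Genes of inflammation that did not pass included Ptgs2 (0.33 and -0.05, second probe 0.47 and 0.36) and the itaconate enzyme Acod1 (0.56 and -0.04).

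Of 26 interferon-stimulated genes, 6 were lower, including Isg15 (-0.46 and -0.25) and Ifi35 (-0.56 and -0.40), 2 were higher, among them Eif2ak2 (0.50 and 0.40), and 18 did not pass. Of all genes 13.8% were lower and 14.5% higher. Of 27 genes of cytokine receptors and their signalling, 9 were higher, 1 was lower and 17 did not pass (median 0.15). Higher were Csf2ra (0.52 and 0.34), the feedback inhibitor Socs3 (0.64 and 0.25) and Stat5a (0.27 and 0.62), and lower was Stat3 (-0.39 and -0.45). Csf1r, the receptor of the macrophage growth factor, was at 0.36 and 0.78 on its brightest probe and at -0.18 and -0.60 and -0.32 and -0.38 on its others, and its mean over probes was -0.058. With median centring 0 of the 27 were higher. Of the 12 macrophage markers, Spi1 (-0.55 and -0.33), Fcgr1 (-0.35 and -0.24), Lyz2 (-0.20 and -0.41), Cd14 and Cx3cr1 (-0.41 and -0.17) were lower and Csf1r higher, while Cd68 (-0.27 and -0.26, adjusted p = 0.0926), Adgre1, Itgam, Aif1, Mpeg1 and Tyrobp did not pass. Of 20 macrophage transcription factors 5 were lower, among them Irf8 (-0.57 and -0.41), 2 were higher and 13 did not pass. Fewer cells of a type and less RNA per cell cannot be told apart in such pooled RNA.

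Transforming growth factor signalling had 6 genes higher and 1 lower of 25, and 18 did not pass, where 14.5% of all genes were higher and 13.8% lower. Its type I receptors Tgfbr1 (0.91 and 0.85, mean 0.88, adjusted p = 0.000107) and Acvr1 (0.65 and 0.79) and the corepressor Ski (0.41 and 0.50) were higher, and the target Id3 (-0.51 and -0.55) lower. Of 35 immediate early genes 8 were higher and 9 lower. Klf4 (-0.74 and -1.15), Btg1 (-0.94 and -0.88), Ier3 (-1.11 and -0.54) and Jund (-0.76 and -0.58) were lower, and Myc (0.45 and 0.52), Fosl2 (0.61 and 0.41) and Egr2 (0.94 and 0.22) higher. Of the phosphatases and Sprouty proteins that limit MAP kinases, Spry1 (0.73 and 0.59) and Dusp2 (0.71 and 0.64, second probe -0.06 and -0.02) were higher and Dusp4 (-0.54 and -1.40) lower.

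**Figure D4:**
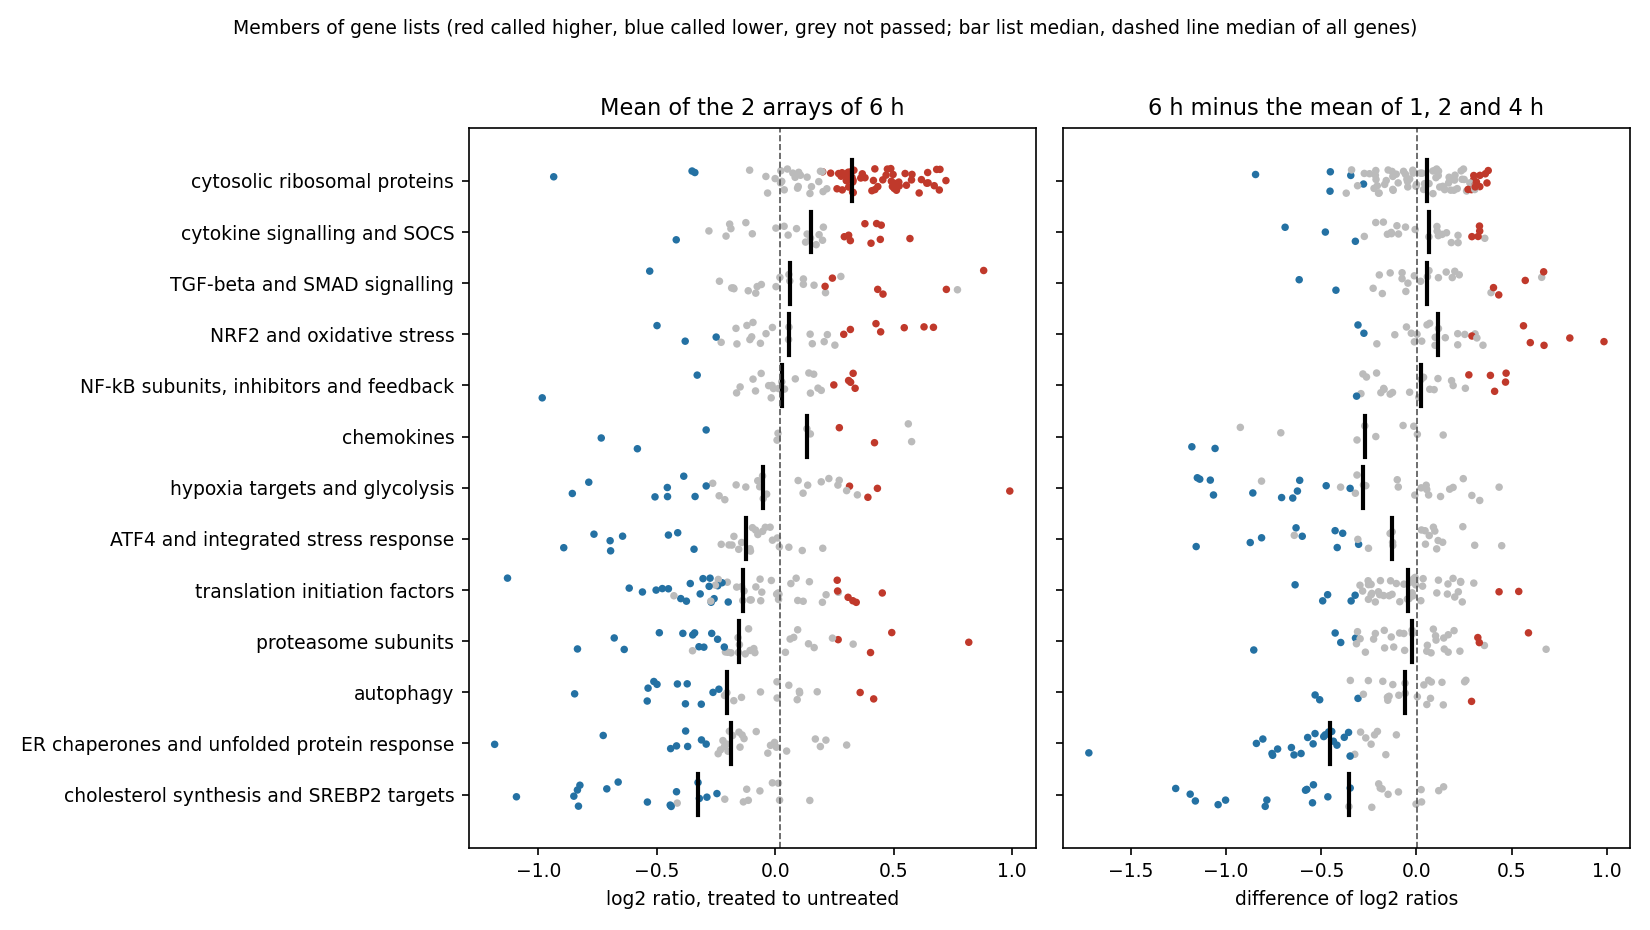
Members of 13 gene lists, 1 point per gene, as mean log2 ratio at 6 h (left) and as 6 h minus the mean of 1, 2 and 4 h (right). Red genes were called higher, blue lower, grey not, bars mark list medians and the dashed line the median of all genes. Ribosomal protein genes lie to the right at 6 h (median 0.32) but near all genes against the earlier hours (0.06), and ER genes lie further left in the second panel (-0.45) than in the first (-0.19).

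The plot of gene lists has cytosolic ribosomal proteins in its top row. Of 81 measured cytosolic ribosomal protein genes 55 were higher and 3 lower at 6 h (14.5% of all genes were higher), with a median of 0.32. The same list had a median of 0.27 over the earlier hours, and 12 were higher and 5 lower than before. Rps19 (0.68 and 0.76), Rps24 (0.54 and 0.85), Rplp1 (0.80 and 0.58) and Rpl23a (0.52 and 0.84) were among the higher, and the paralog Rpl22l1 was the lowest (-0.99 and -0.88, adjusted p = 7.09e-05). Dimmer probes of Rps19 (-0.07 and -0.17), Rps24 (-0.08 and 0.01) and Rpl22l1 (0.15 and 0.09) did not follow. Such genes have many near-identical pseudogenes, and copies that share a probe cannot be told apart. The count depended on the scaling, since 16 were higher with processed signals and 4 with median centring.

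Of 52 initiation factors of translation 18 were lower, 6 higher and 28 did not pass (median -0.13), where 13.8% of all genes were lower. Besides Eif5 these were the scaffold Eif4g1 (-0.53 and -0.71, second probe 0.07 and -0.04) and the exchange factor subunit Eif2b5 (-0.49 and -0.63). Mitochondrial ribosomal proteins (6 higher and 22 lower of 78, median -0.06) and proteasome subunits (4 and 12 of 36, median -0.15) were lower in part. Of all genes 14.5% were higher and 13.8% lower. Respiratory chain subunits (14 and 14 of 78) were mixed. The proteasome subunits Psmd2 (-1.36 and -0.31) and Psmc2 (0.23 and 1.41) each stood out on 1 array, with second probes at -0.32 and -0.29 and at -0.06 and 0.34. Of 25 autophagy genes 11 were lower and 2 higher (median -0.20), against 13.8% and 14.5% of all genes. Among the lower were the ATG8 homologs Gabarap (-0.76 and -0.93) and Map1lc3b (-0.28 and -0.74, second probe 0.11 and 0.12). Without the B. clausii array of 6 h 2 of these were lower, and with processed signals 4.

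Heat-shock chaperones went both ways (5 higher and 8 lower of 24, where 14.5% and 13.8% of all genes did), with Hspa8 lower (-0.77 and -1.16, second probe -0.02 and -0.07) and mitochondrial Hspd1 higher (0.55 and 0.55, second probe -0.14 and -0.08). Lysosomal genes did too (10 and 11 of 56), with the calcium channel Mcoln1 lower (-0.55 and -1.21, second probe 0.27 and 0.44). In lipid handling, the cholesterol exporter Abcg1 (-1.12 and -0.76) and the phosphatidate phosphatase Lpin1 (-1.35 and -0.45, with 3 further probes between -1.21 and -0.64) were lower. The carnitine palmitoyltransferase Cpt1a (0.99 and 0.83, adjusted p = 9.16e-05, second probe 0.15 and 0.09), Apoe (0.45 and 0.85) and Lpl (0.51 and 0.51, second probe -0.13 and 0.03) were higher. Of 27 apoptosis genes 7 were higher, including the BH3-only genes Bmf and Bcl2l11 (0.64 and 0.72), and 9 lower, including another BH3-only gene, Bbc3 (-0.65 and -0.77), which had been between 0.35 and 0.76 on the earlier arrays. Amino-acid transporters were 5 higher and 5 lower of 20, Slc43a2 at one end and Slc16a10 (-0.65 and -0.52, 3 other probes between -0.09 and 0.31) at the other. In the circadian clock Cry1 (-0.68 and -0.60) and Nfil3 (-0.61 and -0.58) were lower and Dbp (0.65 and 0.43) higher. The integrin Itga5 (0.63 and 1.11), the urokinase Plau (0.60 and 0.65, second probe -0.05 and 0.27), the polyamine enzyme Odc1 (0.67 and 0.54, second probe 0.38 and -0.003) and the nucleolar Npm1 (0.68 and 0.54) were higher, and the nonclassical MHC gene H2-M3 (-0.71 and -0.91) lower.

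The 2 arrays stood at least 2-fold apart for 70 of the 14807 genes, and 53 of all genes (0.358%) did so with opposite signs. With 1 array per bacterium these differences have no replicate check and no test. Skil, a corepressor of SMAD signalling (1.56 and -0.02 with L. acidophilus and B. clausii), histone H3c14 (1.5 and 0.06) and Cdca5, the cohesin protector sororin (1.06 and -0.75), were higher with L. acidophilus. Slc3a2, the heavy chain of amino-acid transporters (-0.12 and 1.64), linker histone H1f0 (-0.04 and 1.56), Pxn, the adhesion protein paxillin (-0.10 and 1.43), and Ubtf, a factor of RNA polymerase I (-0.44 and 1.19), were higher with B. clausii. Second probes of Skil (0.00 and 0.01), Cdca5 (-0.29 and -0.21), Slc3a2 (-0.06 and -0.02) and Ubtf (-0.02 and -0.17) did not repeat this. The other probes of H1f0 read -0.05 and 0.00, and -0.21 and 0.33, and those of Pxn -0.12 and 0.14, and 0.18 and 0.38. Past 2-fold lower with L. acidophilus but not with B. clausii were Kif2a, a kinesin (-1.26 and -0.10), Vegfb (-1.24 and -0.39, second probe -0.24 and 0.02) and Agmo, an ether lipid enzyme (-1.24 and -0.30). Each bacterium had its own slide and scan, which cannot be told apart from it.

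**Figure D5:**
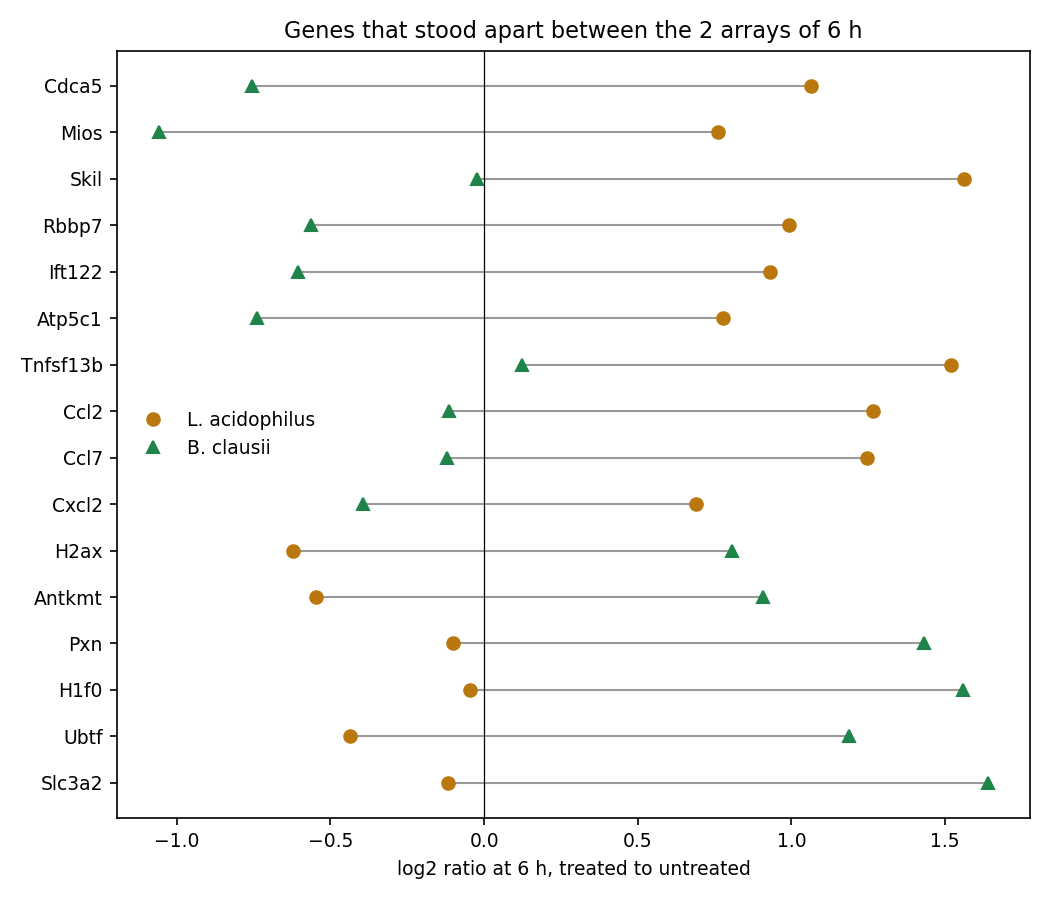
Log2 ratio (treated over untreated cells) at 6 h for 16 genes that differed between L. acidophilus (circles) and B. clausii (triangles), 1 array each and no error bar. The genes from Cdca5 to Cxcl2 are higher with L. acidophilus, and those from H2ax to Slc3a2 are higher with B. clausii.

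The plot of genes that stood apart places the chemokines Ccl2, Ccl7 and Cxcl2 with the genes higher after L. acidophilus. Of the 14807 genes, some had signal above background in 1 channel on both arrays of 6 h, 104 in treated cells alone and 33 in untreated cells alone. Their folds come from channel values after loess and scaling between arrays (Aquantile) and remain open to dye bias. The dim channel was set no lower than the lowest detected signal. No test is given, since these genes were chosen from the same channel values. This limit raised the dim channel of the adhesion molecule Cadm4, at least 1.5-fold higher in treated cells, and of the integrin Itgb3, at least 1.31-fold. It did not act on the other named genes, whose folds are plain ratios to a channel not well above background, not bounds. The neuropeptide S receptor Npsr1 was 1.44-fold higher. The growth factor Pdgfc was 1.49-fold lower, Arhgef38 1.40-fold and the diacylglycerol kinase Dgka 1.33-fold.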

How the data were processed

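RNA of treated (Cy5) and untreated cells (Cy3) was hybridised to 8 two-colour Agilent mouse arrays, 1 per bacterium and time, per the labels. The deposited intensity values are spot means, local background medians and processed signals, and the deposited log10 ratios are red over green processed signal, all made by Feature Extraction (10.7.3.1 per the file headers, 10.5.1.1 per the submitters' processing notes). The labels and headers do not say whether both bacteria shared an untreated pool.

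Ratios were computed anew in limma 3.58.1 (R 4.3.3, statmod 1.5.0, data.table (1.17.8)): outlying local backgrounds, above 3 times the array median and marked by the software, were set to that median (a repair chosen after the files had been seen), then normexp with offset 50 and loess within arrays. Flagged spots (0.659% and 0.728% at 6 h) were left out. The 21273 probes above background, in 1 channel or both, on 2 or more arrays were kept, and the brightest probe stands for each of 14807 genes. Values of further probes are given for some of the named genes only. Of 41174 probes, 27668 were named by RefSeq accession, 93 by another accession and 5989 by symbol or synonym (GRCm38.p6 gene table), and 7424 kept the file's name. Limma fitted a mean for each of the 4 time points to the 8 arrays (residual degrees of freedom 4, prior 6.10, prior SD 0.114), with Benjamini-Hochberg adjustment over all genes. An SE is that of this fit. The p-values measure disagreement of the bacteria within times, not spread between cultures, and the number of arrays limits the precision.

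Named in each direction were the 14 called genes with the largest mean at 6 h and the 10 against the earlier hours. Also named were the ends of each array (5) and of their difference (6), and 3 genes in each direction with signal in 1 channel. Up to 5 per list and a macrophage panel were added, and all had a usable symbol. The 14 in each direction also had to share their sign on both arrays of 6 h. Outside this rule, chosen after their values were seen, are Aldoa, Asns, Fosl2, Gars, Gpi1, Hspa5, Hyou1, Manf, Nfe2l2, Nupr1, Pgk1, Slc2a1, Tlr6, Xbp1, 8 sterol genes (Cyp51, Fdft1, Fdps, Hmgcs1, Insig1, Lss, Sqle, Srebf2), the other promoter carriers and the cell markers. The members, lists and rule were chosen with earlier results of these data known. In simulated data, 95.7% of changes of 0.5 and 99.9% of changes of 1 (log2) were recovered for the 6 h response (200 changed of 14807 genes). Of the calls 6.73% and 5.13% were false. Against the earlier hours 86.6% and 99.9% were recovered, with 7.77% and 6.98% of calls false. The simulated noise had the fit's own spread, was independent between arrays and held no dye bias, so these shares do not cover such effects. Alternatives were other signals, background, offset, centring, filters, probe rules, a bacterium term, and leaving out arrays or times. Figures used matplotlib 3.10.9 and pandas 2.3.3 in Python 3.11.15. Some results for single genes are not reported here.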

Additional observations from a re-analysis of the deposited data

Results flagged for a closer look

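For 6 genes with a usable symbol (and 1 feature without one, 7 in all) the arrays of 6 h lay on opposite sides of untreated cells, each by at least 1.5-fold, and these are given as L. acidophilus minus B. clausii on the log2 scale. With 1 array per bacterium the difference was not tested. Cdca5, the cohesin protector sororin, differed by 1.82 (1.06 and -0.75), and on the earlier arrays of both bacteria it lay between -0.41 and -0.15. A second Cdca5 probe read -0.29 and -0.21 at 6 h. Mios, a subunit of the GATOR2 complex of mTORC1 signalling, differed by 1.82 (0.76 and -1.06), with a second probe at 0.22 and 0.12 and earlier ratios between -0.17 and 0.00. Ift122, of intraflagellar transport, differed by 1.53 (0.93 and -0.60), Atp5c1, the gamma subunit of ATP synthase, by 1.52 (0.78 and -0.74), and the mitochondrial ribosomal protein Mrps28 by 1.40 (0.76 and -0.64). The histone variant H2ax went the other way, with a difference of -1.43 (-0.62 and 0.81).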

How the results depend on the processing

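RNA of 3 cultures was pooled, so cultures could not be paired across arrays, and the labels give no replicate numbers. A bacterium term, which takes the arrays of a bacterium and slide together across times, gave 5698 calls at 6 h. The count of the 6 h response, 4187, was 2374 with processed signals, 2322 with the series matrix values and 1099 with median centring, and 1834 to 4321 when 1 array was left out. The count against the earlier hours, 2296, was 367 with processed signals, 369 with the series matrix, 1239 with offset 0, 882 with local backgrounds as deposited, 1 with median centring, 3603 with a bacterium term, 1052 without both arrays of 1 h and 1176 without both of 2 h, and 863 to 2603 when 1 array was left out. Genes past 2-fold on both arrays, 15, numbered 224 with processed signals and with the series matrix, 64 with offset 0 and 203 at 1.5-fold. Genes differing by 2-fold between the arrays, 70, numbered 895 with processed signals, 901 with the series matrix, 321 with offset 0 and 46 as means over probes. Offsets shrink ratios of dim probes by construction. The means over probes of Csf1r (-0.058) and Lars (-0.17) had the opposite sign to their brightest probes. Slc43a2, Neat1, Esyt3, Hmga2, Crtam, Herpud1, Msmo1, Selenbp1 and Traf1 kept their calls at 6 h under all 25 alternatives. Against the earlier hours 16 of the 20 genes named for that comparison kept theirs with processed signals and 1 (Herpud1) with median centring. The cause of these changes was not tested. For genes above background in 1 channel alone, the folds are bounds or ratios to a dim channel, not levels.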
